A study of Homo sapiens with 6 samples.

Results

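The third of 3 empty-vector K562 lines was set against the other 2 vector lines, gene by gene, with 3 lines expressing Pu.2 as the reference. Of the 6 arrays in the series, vector line 3 supplied 1, vector lines 1 and 2 supplied 2, and the Pu.2 lines supplied 3. Over 18417 genes, 416 lay more than 2-fold from the mean of lines 1 and 2 in vector line 3 and outside both of them. Of these, 238 were higher in line 3 (1.29% of the genes measured) and 178 were lower (0.966%). Without vector line 2 the higher genes numbered 433, and without vector line 1 198. With 1 line against 2 these are descriptions, and no test was run.

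K562 is an established human line from a chronic myeloid leukaemia. The study used it to ask what a shortened form of the transcription factor PU.1, named Pu.2, does in cells with erythroid potential. All 6 lines were electroporated, kept in puromycin at 2 µg/mL and isolated as single clones. The vector lines carried the empty pEF1α plasmid and the Pu.2 lines carried pEF1α-Pu.2, which holds the murine cDNA. Each line was a single clone read on 1 array, so what the clone contributed and what the handling of its RNA contributed cannot be told apart. In the labels the growth medium is Schneider's, made for insect cells, at 24 °C, while the study's methods give RPMI for K562. Values are the deposited log2 values per probe set, on which a difference of 1 is 2-fold. A difference is line 3 minus the mean of lines 1 and 2 unless another is named.

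An isolated clone inherits the state of the cell it grew from, including which silenced or active genes that cell carried. K562 cultures hold cells that differ in this way, with traits of erythroid precursors (haemoglobin and heme synthesis), of megakaryocytes and of immature myeloid cells. Membrane receptors such as FCGR2A, CD44 and PTPRC (CD45) are commonly used to tell such states apart by flow cytometry. A bulk array averages over the cells of a line, so fewer cells with a transcript and less of it in each cell cannot be told apart.

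The markers of the cell line averaged 8.46 in line 3, against 8.36 and 8.33 in lines 1 and 2. All 10 K562 markers, among them GATA1, TAL1 and KLF1, lay at or above the median probe set level of 5.37 when averaged over the lines, and 0 of 10 was called in line 3. Of the 3 T cell, 2 B cell, 4 monocyte, 3 fibroblast and 4 epithelial markers measured, 0 were called. The mean over the 4 monocyte markers was 4.18 in line 3 against 4.27 and 4.21 in lines 1 and 2, below the median level. Of the 4 epithelial markers, EPCAM had 10.99 and 10.92 in lines 1 and 2 and 10.85 in line 3, and KRT8 had 7.93, 7.90 and 7.12. Array medians ran from 5.30 to 5.42, with line 3 at 5.30. Human SPI1, which encodes PU.1, had 6.32 and 6.05 in vector lines 1 and 2, 6.12 in line 3 and 6.41 to 6.59 in the Pu.2 lines.

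Between pairs of lines, vector lines 1 and 2 had the fewest genes over 2-fold apart, at 88. Line 3 differed from line 1 in 641 genes and from line 2 in 390. Against the Pu.2 lines it differed in 378, 373 and 458 genes, each fewer than against line 1, and the last more than against line 2. The Pu.2 lines differed from each other in 149 to 185 genes. By the median absolute difference over all genes the order was another one. It was 0.19 between lines 1 and 2, 0.25 between line 3 and line 1, and 0.17 between line 3 and line 2, while line 3 against the Pu.2 lines had 0.18 to 0.23. A typical gene of line 3 thus lay no farther from line 2 than line 1 did, and the lines differed in how many genes were far apart. The number of genes past 4-fold was 90 and 89 for line 3 against lines 1 and 2, and 80, 41 and 59 against the Pu.2 lines. Vector line 1 had the highest array median (5.42) and line 3 the lowest (5.30). The pair counts were not repeated after rescaling.

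The rule for a call requires a wide difference, so its size against the spread of lines 1 and 2 is no result. The median gap between lines 1 and 2 was 0.36 over the called genes and 0.19 over all genes. In 36 called genes lines 1 and 2 were themselves over 2-fold apart, with SCG3 among them. Differences past 4-fold were found in 40 genes higher and 45 lower, and differences past 4 log2 units in 4 higher and 10 lower. The genes nearest the threshold were H2BC8 and ZNF799 just inside it and KCTD6 and TBCEL just outside, all at 1.00 to 2 decimals, on the higher side. On the lower side VEGFA at -1.01 and then GMFG, closer still, were inside, and AXL at -0.99 and WARS1 at -0.98 were outside.

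The Pu.2 lines sorted the called genes into 3 classes. Each Pu.2 line was placed with line 3 or with lines 1 and 2 by the midpoint between them. In 178 of 416 genes (42.8%) all 3 Pu.2 lines lay on the side of line 3, in 135 (32.5%) 1 or 2 of them did, and in 103 (24.8%) none did. By direction, 107 of the 178 lower genes (60.1%) and 71 of the 238 higher genes (29.8%) were placed with all Pu.2 lines, a difference in shares that was not tested. Line 3 stood alone in 20 of the lower genes (11.2%) and 83 of the higher ones (34.9%). Since both sides of this sorting use lines 1 and 2, a gene in which those lines are unusual falls into the first class by construction.

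The 4 genes that mark vector line 3 show both patterns. CA2, a cytosolic carbonic anhydrase of red cells, had 4.09 and 3.47 in vector lines 1 and 2, 8.35 in line 3 and 4.02, 3.85 and 3.99 in the Pu.2 lines (probe set 8147132). The 5 other lines lay below the median probe set level of 5.37. No detection values were used here, so such values may lie at background, and a difference that reaches below that level, as in many genes below, has no firm size. FCGR2A, the low-affinity receptor for IgG, had 8.86 and 9.34 in lines 1 and 2 against 4.14 in line 3 (probe set 7906757). The Pu.2 lines had 4.01, 4.93 and 5.48, so line 3 lay inside the range of the Pu.2 lines and below its own group. HEMGN, a nuclear protein of erythroid and other blood precursors, had 8.29 and 8.74, then 10.56 in line 3 and 10.81, 10.87 and 10.86 in the Pu.2 lines (probe set 8162719). SLC30A10, a manganese exporter, had 6.21 and 6.53, then 8.73 in line 3 and 10.20, 9.52 and 9.65 in the Pu.2 lines (probe set 7924342). Line 3 fell short of every Pu.2 line for both genes, by less for HEMGN than for SLC30A10.

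Promoter sequence is shown for FCGR2A and HEMGN, which line 3 shared with the Pu.2 lines in opposite directions, and for PTPRC, the gene most reduced in line 3 alone. Each run is the 250 bases before the RefSeq start nearest the gene's 5′ end, on GRCh38.p14, read 5′ to 3′. Capitals mark 3 motifs searched on both strands. The first is a form of the motif of erythroid GATA factors, searched as AGATAA and on the other strand as TTATCT. The second is an ETS motif that PU.1 can bind, searched as GAGGAA and on the other strand as TTCCTC. The third, bound by KLF factors, was searched as CACCC and on the other strand as GGGTG. FCGR2A lies at chr1:161505207-161505456 on the plus strand, HEMGN at chr9:97944853-97945102 on the minus strand and PTPRC at chr1:198638790-198639039 on the plus strand.
FCGR2A: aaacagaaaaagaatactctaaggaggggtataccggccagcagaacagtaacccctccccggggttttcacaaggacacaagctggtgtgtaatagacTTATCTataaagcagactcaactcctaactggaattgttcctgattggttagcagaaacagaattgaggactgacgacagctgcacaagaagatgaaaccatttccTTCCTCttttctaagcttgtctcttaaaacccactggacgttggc
HEMGN: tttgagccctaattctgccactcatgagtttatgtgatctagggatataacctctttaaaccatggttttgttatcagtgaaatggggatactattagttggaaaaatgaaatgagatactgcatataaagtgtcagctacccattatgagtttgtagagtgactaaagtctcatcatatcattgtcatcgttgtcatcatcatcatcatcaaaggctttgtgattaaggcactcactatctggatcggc
PTPRC: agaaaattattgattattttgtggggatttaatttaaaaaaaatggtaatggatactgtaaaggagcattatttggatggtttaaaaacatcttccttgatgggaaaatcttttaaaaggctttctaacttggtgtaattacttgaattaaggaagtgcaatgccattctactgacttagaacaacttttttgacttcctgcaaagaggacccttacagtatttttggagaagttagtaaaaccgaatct
FCGR2A held TTATCT starting 151 bases and TTCCTC starting 45 bases before the start, and the windows of HEMGN and PTPRC held 0 matches to these strings. Other forms of the motifs were not searched, so 0 matches do not show that a window lacks such sites. Over both strands, these motifs were found before 6.89% (GATA), 23.6% (ETS) and 57.8% (KLF) of the 13769 protein-coding genes measured that had an entry, of 16898. Of the genes lower with all Pu.2 lines, 11.1%, 20.0% and 61.1% of 90 held them, and of the genes higher in line 3 alone 17.2%, 27.6% and 56.9% of 58 did. For the genes higher with all Pu.2 lines the shares were 6.78%, 22.0% and 50.8% of 59. In the remaining classes under 80% of the genes had an entry (72.9% to 76.7%), so no share is given. A match is a run of letters and not a measured site, and none of the 6 strings contains another.

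Among genes placed with the Pu.2 lines, the higher ones were led by SSX1, an X-linked cancer testis gene that is normally silent outside the germ line. It had 4.49 and 5.18 in lines 1 and 2, 11.91 in line 3 and 11.55, 11.73 and 11.61 in the Pu.2 lines. Its difference of 7.08 was the largest of any called gene, and line 3 was the highest of the 6 lines. HSD17B12, a reductase of fatty acid elongation, followed with 3.12 and 2.54, then 7.77, and 7.01, 6.47 and 7.54 in the Pu.2 lines. COBLL1 (difference 3.04), the interleukin 23 receptor chain IL23R (2.95), POPDC3 (2.69), ZNF711 (2.56), the adaptor GAB1 (2.52), the extracellular matrix protein RELN (2.37) and OR52A5 (2.12) came next. GAB1 depends on the choice of probe set, as the mean of its probe sets gave 1.17. In COBLL1, POPDC3, GAB1 and RELN the value of line 3 was close to or below the lowest Pu.2 line, as in RELN with 8.65 against 9.29 to 9.95.

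Heme synthesis, the making of the iron-binding pigment of haemoglobin, was represented by a pair of its enzymes. In heme synthesis and mitochondrial iron, 2 of 15 measured genes were higher, against 1.29% of all genes, and 0 lower, with a median difference of 0.35 against -0.05 over all genes. FECH, which inserts iron into the porphyrin ring, had 6.68 and 6.39, then 8.04, and 8.35, 8.80 and 7.93 in the Pu.2 lines. CPOX, a middle step of the same pathway, had 5.23 and 6.11, then 7.12, and 7.15, 7.28 and 6.46. Line 3 thus lay inside the range of the Pu.2 lines for both. UROS, another middle step, differed by 0.99 and ABCB10, a mitochondrial transporter, by 0.75, both short of the threshold. ALAS2, the first and erythroid-specific step, went with lines 1 and 2, with 6.45 and 5.60, then 6.47, against 9.37, 9.55 and 8.65 in the Pu.2 lines. Embryonic HBZ did so as well, with 10.85 and 10.27, then 10.62, against 12.31, 12.27 and 11.92 (both genes were chosen after their values were seen). Of 27 erythroid transcription factors and regulators HEMGN alone was called, and of 7 measured genes for globins and their chaperone AHSP, AHSP was called (difference 1.22) with the Pu.2 lines split.

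Metal transport and receptors completed the higher side. SLC39A8, an importer of zinc and manganese, had 8.26 and 8.67, then 9.87, and 10.59, 10.27 and 10.02 in the Pu.2 lines. With SLC30A10 it made 2 of 24 genes for zinc and manganese transporters and metallothioneins, against 1.29% of all genes higher, with 0 lower. Of the 24, 11 had a difference above 0 and 13 below, and the median was -0.09 against -0.05 over all genes. IL2RG, the common chain of several interleukin receptors, had 6.73 and 7.17, then 8.69, and 8.43, 9.44 and 7.94, the single called member of 19 lymphocyte genes. HSPA4L, a chaperone, had 8.68 and 9.09, then 10.08, and 9.77, 9.60 and 9.80. Of 14 heat shock genes it was the 1 higher, and HSPA6, which neighbours FCGR2A, was the 1 lower. Of all genes 2.26% were called. A difference above 0 was found in 11 of the 14, and their median was 0.26, or 0.16 after cyclic loess. HSPA6 had 5.89 and 7.37, then 5.49, and 5.48, 6.37 and 5.82, so line 2 stood highest and the Pu.2 lines were split.

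On the lower side of the same class CD44, the hyaluronan receptor, had 9.42 and 9.41 in lines 1 and 2, 4.97 in line 3 and 5.27, 5.01 and 5.12 in the Pu.2 lines. Lines 1 and 2 were nearly equal there and the 4 other lines lay more than 4 log2 units below. LCP2 (SLP-76), an adaptor of immune receptors, had 9.28 and 9.89, then 6.19, and 5.38, 5.30 and 5.42. LAPTM5, a lysosomal membrane protein of blood cells, had 8.43 and 9.65, then 5.97, and 5.54, 5.68 and 6.19. The chemotactic receptor GPR183 (-2.71), CD96 (-2.46), CD80 (-2.10), MS4A4A (-2.12), MS4A6A (-1.77) and MS4A3 (-1.18) were lower too (the first 5 were picked after their values were seen). The MS4A genes neighbour one another, and lines 1 and 2 disagreed on them, with MS4A4A at 7.22 and 4.33 before 3.65 in line 3.

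**Figure D1:**
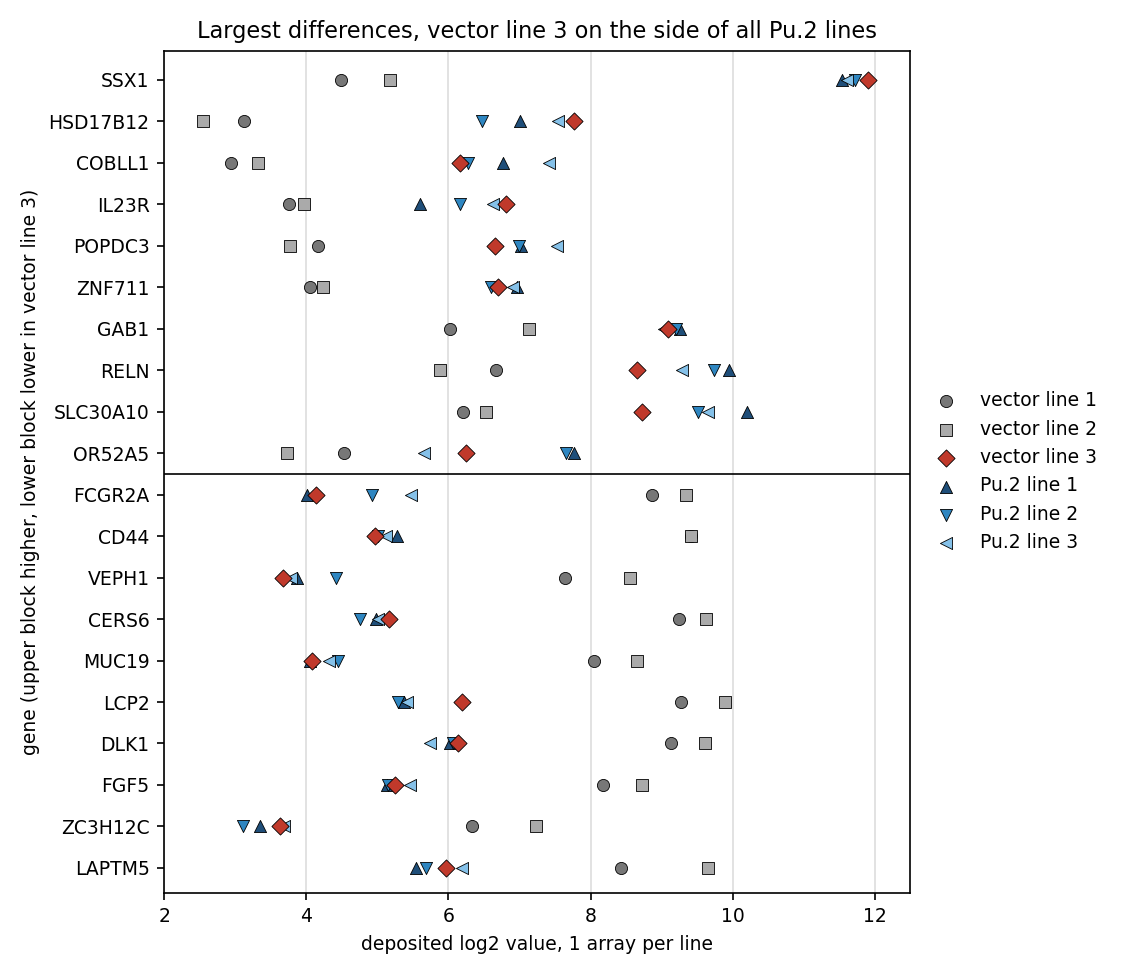
Deposited log2 values of the 6 lines (1 array each, no error bars) for the 10 protein-coding genes with the largest differences in each direction among those where all 3 Pu.2 lines lay on the side of vector line 3. The red diamond of line 3 lies among the blue Pu.2 symbols for SSX1 at 11.91 and for CD44 at 4.97, away from the gray symbols of lines 1 and 2.

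DLK1, an imprinted membrane protein related to Notch ligands, had 9.14 and 9.61, then 6.14, and 6.02, 6.06 and 5.74. FGF5, a fibroblast growth factor, differed by -3.21 and PDGFA, a platelet-derived growth factor chain, by -2.83. CERS6, a ceramide synthase, had 9.25 and 9.63, then 5.17, which was above all 3 Pu.2 lines (4.76 in the lowest). VEPH1 (-4.42), the mucin gene MUC19 (-4.26) and ZC3H12C (-3.15), of a family of RNA-degrading enzymes, were low in line 3 and in all Pu.2 lines as well. The X-linked GABA receptor genes GABRE (-2.89) and GABRQ (-2.43) were both lower (chosen after their values were seen, as was PDGFA).

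Phosphatases and immediate early genes answer to growth factor signalling. Of 23 measured members 3 were lower, against 0.966% of all genes, and 0 higher. A difference below 0 was found in 19 of them, against 57.7% of all genes, and the median was -0.35 against -0.05 over all genes. EGR1, an early response transcription factor, had 11.14 and 11.23, then 9.22, and 9.65, 9.97 and 9.25 in the Pu.2 lines. IER3 differed by -1.21 and ETV5, an ETS factor that responds to growth factor signalling, by -1.22. ETV5 was also the single called member of 20 ETS factors. PHGDH, the first step of serine synthesis, had 6.72 and 6.81 in lines 1 and 2 and 5.18, 5.52 and 5.29 in the Pu.2 lines, with line 3 below all of them (difference -1.76), the called member of 25 ATF4 and endoplasmic reticulum stress genes, whose median was -0.33. SLC7A5, an amino acid transporter of that list, missed the threshold at -0.97.

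Line 3 was intermediate rather than Pu.2-like for some of the class. Of the 178 genes, line 3 lay within the range of the Pu.2 lines in 77, short of it in 42 and beyond it in 59. VIM, the intermediate filament vimentin, had 10.60 and 10.82, then 9.59, and 7.73, 8.09 and 7.76, a difference of -1.13 where the mean of the Pu.2 lines was -2.85 away. GMFG, a regulator of branched actin, had 10.48 and 10.30, then 9.39, and 6.84, 7.40 and 6.31. NCKAP1L, the WAVE complex subunit of blood cells, had 7.18 and 6.75, then 5.82, and 4.43, 4.27 and 4.62. In these 3 genes line 3 lay between the groups and nearer to lines 1 and 2. Together with ARHGDIB, which was higher, they were the 4 called members of 24 hematopoietic actin and cytoskeleton genes, whose median was -0.34. Over all genes 2.26% were called.

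In 135 genes the Pu.2 lines were split (226 without vector line 2, 85 without Pu.2 line 1 and 86 without Pu.2 line 2). Of the 84 higher genes, 56 had 1 Pu.2 line on the side of line 3 and 28 had 2, and of the 51 lower genes 15 had 1 and 36 had 2. Pu.2 line 2 was the most frequent companion on the higher side, in 51 genes, followed by line 1 in 36 and line 3 in 25. On the lower side the counts were 36 for Pu.2 line 2, 33 for line 3 and 18 for line 1.

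ALDH1A1, which oxidizes retinaldehyde, had 4.45 and 3.90 in lines 1 and 2, 8.98 in line 3 and 5.14, 6.60 and 8.04 in the Pu.2 lines. Its 6 values spread over the whole span, with line 3 highest. CA1, the most abundant carbonic anhydrase of red cells, had 5.19 and 4.73, then 8.35, and 5.66, 7.69 and 4.93, so Pu.2 line 2 alone came near. MGST1, a microsomal glutathione transferase, followed the same line, with 5.12 and 5.08, then 7.02, and 5.11, 7.08 and 4.57. AHSP did too, with 4.38 and 3.87, then 5.34, and 4.22, 5.87 and 4.42. ARHGDIB had 3.76 and 3.43, then 6.78, and 3.54, 6.30 and 5.26. CYB5A, an electron carrier (2.77), the chromatin remodeller CHD7 (2.67), TMEM14A (2.61), the sodium channel gene SCN2A (2.60), the cancer testis gene SSX3 (2.55), the zinc finger gene ZNF43 (2.47) and EBLN1 (2.25) were the next largest.

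On the lower side IGF1, insulin-like growth factor 1, had 9.43 and 9.60, then 3.86 in line 3, and 6.08, 5.92 and 6.72 in the Pu.2 lines. Line 3 was the lowest of the 6 lines, below the median level, and the Pu.2 lines lay between it and lines 1 and 2. CALB1, the calcium buffer calbindin, had 11.33 and 11.74, then 6.92, and 9.49, 5.32 and 8.58. CD69, an early activation receptor, had 9.10 and 9.45, then 4.91, and 7.37, 6.84 and 5.68. LIFR, the receptor for leukaemia inhibitory factor, differed by -3.19, the thyroid hormone receptor THRB by -2.65, the focal adhesion protein TES by -2.22, the corepressor TLE4 by -2.10 and the pseudokinase TRIB2 by -2.06. SCG3, a secretory granule protein, had 5.36 in line 1 and 9.08 in line 2 before 3.08 in line 3, and BRINP3 had 5.47 and 7.89 before 3.60. Their differences of -4.14 and -3.08 therefore rest largely on line 2, and without line 2 they were -2.28 and -1.87.

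Line 3 stood alone in 103 genes, and in 46 of them it was over 2-fold from the nearest of the 5 other lines (37 higher and 9 lower). With genes below the median level left out it stood alone in 64. PTPRC, which encodes CD45, the phosphatase on nearly all nucleated blood cells, had 9.51 and 9.88 in lines 1 and 2, 4.08 in line 3 and 10.77, 9.19 and 11.06 in the Pu.2 lines. Line 3 alone lay below the median level, while the other 5 lines shared a range of 9.19 to 11.06. SCN9A, a sodium channel gene, had 6.62 and 7.21, then 3.41, and 6.29, 5.70 and 7.04. SIMC1, a SUMO-binding protein, had 7.59 and 7.68, then 5.10, and 7.35, 6.58 and 7.16.

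IFITM3, an antiviral membrane protein, had 8.37 and 8.26, then 6.25, and 8.09, 7.44 and 7.62. Its relative IFITM2 had 7.81 and 7.96, then 5.87, and 6.05, 6.51 and 6.37, so the Pu.2 lines went with line 3 for IFITM2 and not for IFITM3. SP110, a nuclear body protein, was higher in line 3 alone (1.40). These 3 genes were the called members of 27 interferon response genes, against 2.26% of all genes called, and the median of the list was -0.05. FGF2 (-1.85), the carbonic anhydrase CA13 (-1.71), SPATA31G1 (-1.63), RALGPS2 (-1.62), the membrane protein EMP2 (-1.58) and fibronectin, FN1 (-1.44), complete the 10 largest. FN1 had 5.98 and 6.91, then 5.01, and 6.84, 5.88 and 7.55, and without line 2 its difference was -0.97, short of the threshold. For RALGPS2 and EMP2 the Pu.2 lines lay on the far side of lines 1 and 2, as in EMP2 with 8.49 and 7.71, then 6.52, and 9.10, 8.71 and 8.78.

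On the higher side CA2 led, and MID1, a microtubule-associated ubiquitin ligase, came next with 3.72 and 3.36, then 7.02, and 3.66, 4.18 and 3.92. IL18, an inflammatory cytokine, had 3.10 and 2.86, then 5.82, and 3.11, 2.96 and 3.06. MBNL3, a splicing factor of the muscleblind family, had 3.96 and 3.98, then 6.62, and 4.02, 3.84 and 3.99. In these 4 genes the 5 other lines lay below the median probe set level and line 3 above it, a pattern found in 27 genes on the higher side. The reverse, with line 3 alone below that level, was found in 17 genes.

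TBC1D4, a regulator of glucose transporter traffic, differed by 2.63, PASD1, a cancer testis gene, by 2.60, ERO1B, an oxidoreductase of the endoplasmic reticulum, by 2.50 and PALMD by 2.46. PASD1 had 3.48 and 3.29, then 5.99, and 3.58, 3.67 and 3.55. The zinc finger genes ZNF724 (2.88) and ZNF730 (2.77) were less even, with ZNF730 at 7.18 in line 1 and 4.71 in line 2 before 8.71 in line 3, which gave 1.53 without line 2. EGLN3, an oxygen sensor, had 6.45 and 6.54, then 7.98, and 6.89, 6.82 and 6.76, and HPGDS, a prostaglandin synthase of mast cells, differed by 1.52. EGLN3 and VEGFA (-1.01) were the 2 called members of 20 glycolysis and hypoxia genes, against 2.26% of all genes called.

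Over all genes 2.26% were called in either direction, so counts of 0 or 1 in lists as short as these are near that share and say nothing particular of them. Of 32 cell cycle genes 0 were called, with a median of 0.04, which was -0.01 after quantile normalization. The counts were also 0 of 26 PU.1 targets and myeloid genes, 0 of 23 integrins and tetraspanins, 0 of 15 cholesterol synthesis genes, 0 of 16 MYC and ribosome biogenesis genes, 0 of 12 MHC genes and 0 of 11 drug efflux genes. Differences below 0 were found in 23 of the 26 PU.1 targets and myeloid genes, in 19 of the 23 integrins and tetraspanins and in 10 of the 12 MHC genes, against 57.7% of all genes. Their medians were -0.10, -0.15 and -0.13 against -0.05. After cyclic loess they were -0.02, -0.05 and -0.03, against -0.0008 over all genes. In these lists 14, 9 and 6 members lay under the median probe set level in all 6 lines. The medians of the cholesterol and ribosome biogenesis lists were -0.35 and 0.17, with 2 of 15 and 14 of 16 members above 0. Of 25 red cell membrane and blood group genes CD44 was called, of 17 iron and heme handling genes the copper ferroxidase HEPH (-1.12), and of 22 megakaryocyte and platelet genes the collagen receptor GP6 (-1.04) and RAB27B (-1.26). RAB27B, of platelet granule secretion, rested on line 2, with 3.88 in line 1, 6.14 in line 2 and 3.75 in line 3.

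Most called genes had no called neighbour, while 16.9% had one. Of 18338 adjacent pairs of measured genes along the chromosomes, 39 (0.213%) were both called, 31 in the same direction and 8 in opposite ones. They involved 70 of the 415 called genes with a position, and several lay in clusters of like genes, as of small nucleolar RNAs, olfactory receptors and the MS4A family. Over all genes 2.26% were called, and most genes have a neighbour on each side. Whether called genes lay together more often than scattered ones would was not tested. Neighbours on chromosome 2 took both directions, as the sodium channel genes SCN3A (1.63) and SCN2A (2.60) were higher and SCN9A was lower. On chromosome 8 CA13 was lower and CA1 and CA2 were higher. SSX1 and SSX3 on the X chromosome were both higher. KRT10, a keratin, had 7.04 and 7.12, then 9.53, and 6.25, 6.92 and 7.00, and the neighbouring antisense gene KRT10-AS1 differed by 1.41.

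A group of zinc finger genes on chromosome 19 was noticed after the values were seen. Between ZNF43 and ZNF254, 6 of 14 measured ZNF genes were higher in line 3 and 0 lower, 13 had a difference above 0, and the median was 0.56. The Pu.2 lines had medians of -0.30, 0.23 and 0.45 there against lines 1 and 2. ZNF91 had 6.01 and 5.96, then 7.91, and 5.23, 6.24 and 5.70, whereas ZNF254 had 7.02 and 7.67, then 8.54, and 8.07, 8.24 and 8.50. These genes are near copies of each other, so probes may pick up more than 1 of them. Over the whole chromosome 15 of 237 ZNF genes were higher (6.33%) and 0 lower. Of all genes 1.29% were higher and 0.966% lower, and of the genes on chromosome 19 1.3% and 0.382%. On the X chromosome 26 of 694 genes were higher (3.75%) against 1.20% of the autosomal genes, and 5 were lower. Of the 26, 10 were higher in line 3 alone, 9 with part of the Pu.2 lines and 7 with all.

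No broad stretch of a chromosome moved far. The median difference over windows of 41 neighbouring genes ran from -0.32 to 0.31, and for line 1 minus line 2 from -0.34 to 0.31. It passed 0.25 in size in 180 of 17441 windows, in 18 stretches, and for line 1 minus line 2 in 81 windows. The longest stretch ran over 47 genes on chromosome 9, from ZER1 to RAPGEF1, with a median difference of -0.32, and a second one from ST6GALNAC4 to SPTAN1 preceded it with 24 genes at -0.33. In the stretch of 47 genes 0 were called, the Pu.2 lines had medians of -0.18, -0.09 and -0.24, and line 1 lay above line 2 by 0.14. On chromosome 3, 14 genes from GHSR to GNB4 had a median of 0.22.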

How the data were processed

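Each of 6 monoclonal K562 lines gave total RNA for 1 Human Gene 1.0 ST array from Affymetrix. The authors ran Expression Console and deposited log2 values, 1 for every probe set. Which algorithm and genome build lay behind them is not given in the sources used here, nor is any batch. The number of arrays limits the precision.

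Of 33297 probe sets, 19460 had 1 gene symbol in the platform annotation, 1754 had several and 12083 had none. The gene table of GRCh38.p14 held 19429 of the 19460 gene IDs and gave biotypes and gene order. Where a gene had more than 1 probe set (769 genes) its brightest one stood for it, so 18417 genes entered, dim ones included. A gene was called where vector line 3 lay more than 1 log2 unit from the mean of vector lines 1 and 2 and outside both. The members, the 38 gene lists and all rules were chosen with earlier results of these data known. Named genes were the 10 protein-coding genes with the largest differences in each direction and class, CA2, FCGR2A, HEMGN, SLC30A10 and SPI1, up to 4 members with the largest differences of each list, and 2 genes on each side of the threshold. Others were chosen after their values were seen. Alternatives were other thresholds, the nearer of lines 1 and 2 as reference, quantile normalization, median centring, cyclic loess (limma 3.58.1 in R 4.3.3), dim genes left out, other rules for probe sets, a linear mean, and lines left out in turn. Computations used Python 3.11.15, numpy 2.4.6 and pandas 2.3.3. Promoter sequence was copied from RefSeq.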

Additional observations from a re-analysis of the deposited data

How the results depend on the processing

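The values rest on 1 array per line, so each spread holds differences of the clones and of the handling of their RNA together. No depth or signal over background is given for these values. Under the main setting 238 genes were higher, 178 lower, 178 placed with all Pu.2 lines, 135 with part of them and 103 with line 3 alone. At 1.5-fold the counts were 920, 617, 472, 574 and 491, and at 3-fold 77, 72, 70, 46 and 33. With dim genes left out 64 genes had line 3 alone, since fewer genes were counted. Leaving out vector line 1 or 2 in turn gave 198 to 433 genes higher, 192 to 208 lower, and with the Pu.2 lines left out in turn as well, 187 to 264 placed with all Pu.2 lines, 85 to 226 with part and 90 to 151 with line 3 alone. The highest count of higher genes, 433, came without vector line 2, whose absence also raised the part class to 226. Without Pu.2 line 1 or 2 the part class held 85 or 86. Under the other settings each count stayed within 1.5 times. Of the 416 genes, 393 were called after quantile normalization, 394 after median centring and 396 after cyclic loess. The 65 called genes named as largest, as markers or at the threshold had 455 values under 7 alternatives, of which 0 changed sign and 17 moved by more than the spread of lines 1 and 2. By construction, leaving out vector line 1 or 2 or taking the linear mean could neither change a sign nor move a value that far. The counts of 0 and 17 therefore bear on the other alternatives only. Averaging probe sets could change only the genes that have several. Each of the 65 genes was called for a difference past 1 log2 unit, so a kept sign after rescaling is a weak check. In 12 values of 5 genes the call was lost. FN1 was -0.97 without vector line 2. GMFG and VEGFA were each -0.94 after median centring, and -0.91 and -0.80 without vector line 1. H2BC8 was 0.90 and ZNF799 0.97 after quantile normalization, and both were nearest the threshold. GAB1 was 1.17 with its probe sets averaged. CA2 ran from 4.27 to 4.88 and PTPRC from -5.80 to -5.44. No paired analysis was possible because the results come from no test.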

Other observations

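Probe sets left out of the gene counts held further differences of vector line 3. Of the 1754 with several symbols, 54 were higher by the same rule (3.08%) and 13 lower (0.741%). Of the 12083 unnamed ones 394 were higher (3.26%) and 122 lower (1.01%). Probe sets of the same genes were not merged here, and some with several symbols held identical values. The 3.08% therefore counts some signals more than once. Cancer testis families of the X chromosome were among those with several symbols. Of 19 listed cancer testis genes measured singly, 3 were higher and 0 lower, against 1.29% and 0.966% of all genes. Their median difference was 0.04, with 10 above 0 and 9 below. In all 6 lines 10 of the 19 lay under the median probe set level. Probe sets shared by XAGE1A and XAGE1B had the same values. These were 6.90 and 6.52 in vector lines 1 and 2, 10.43 in line 3 and 9.55, 10.55 and 10.13 in the Pu.2 lines. A probe set shared by the members of the CT47A family had 7.20 and 7.15, then 8.30, and 5.83, 5.11 and 5.38. Line 3 and the Pu.2 lines thus lay on opposite sides there. The probe set of FCGR2B and FCGR2C, close relatives of FCGR2A, had 8.47 and 8.58, then 6.54, and 6.30, 6.45 and 7.28. The globin probe sets were not called, with 9.97 and 9.57, then 9.57, and 11.04, 10.91 and 10.38 for HBA1 with HBA2, and 11.95 and 12.09, then 12.18, and 12.41, 12.53 and 12.17 for HBG1 with HBG2.

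Small nucleolar RNA genes, which guide chemical modification of ribosomal RNA, were noticed after the values were seen. Of 175 measured, 17 were higher in line 3 (9.71%) and 0 lower, against 1.29% and 0.966% of all genes, with differences from 1.02 to 1.74. In 10 of the 17 line 3 stood alone, in 6 part of the Pu.2 lines went with it and in 1 all did. Averaged over all of them, line 3 had 5.28, against 4.99 in line 1, 5.13 in line 2 and 5.03 to 5.08 for the Pu.2 group, and the median of line 1 minus line 2 was -0.12. SNORD77 had 3.29 and 3.70, then 5.11, and 3.49, 3.51 and 3.62. These values, and the average over all such genes in every line, lay below the median probe set level of 5.37. After quantile normalization or cyclic loess 14 were higher, and after median centring 19.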
